A study of Mus musculus with 3 samples.

Results

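The 9 genes described here carry out the uptake and metabolism of the transmitters glutamate and GABA in brain tissue. They are the plasma membrane glutamate transporters Slc1a2 (GLT-1), Slc1a3 (GLAST) and Slc1a1 (EAAC1), the GABA transporter Slc6a11 (GAT-3), the glutamine carrier Slc38a3 (SNAT3), and the enzymes Glul (glutamine synthetase), Glud1 (glutamate dehydrogenase), Abat (GABA transaminase) and Maob (monoamine oxidase B). The members were chosen by name as known genes of this pathway, without use of a measured value, although earlier results of these data were known. All 9 were found among the 28676 genes of the count table. Maob, which oxidises amines, is counted among them because it takes part in a route by which astrocytes can form GABA from putrescine.

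Released glutamate is removed from the extracellular space mainly by Slc1a2 and Slc1a3 of astrocytes, which couple uptake to the sodium gradient. Within astrocytes glutamate is amidated to glutamine by Glul or oxidised after conversion by Glud1, and glutamine leaves the cell through carriers such as Slc38a3 and serves neurons as a precursor of glutamate and GABA. GABA is taken up by Slc6a11 and broken down by Abat.

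Single-cell RNA sequencing was performed on the medial vestibular nucleus, the brainstem nucleus that receives input from the balance organ, of C57BL/6 mice operated on at postnatal day 20 and sampled 1 day later. ULI was the nucleus on the operated side after unilateral labyrinthectomy, the surgical destruction of 1 inner ear, and was pooled from 11 mice. ULC was the nucleus on the unoperated side of such mice, also pooled from 11 mice. The control was the nucleus of 10 pooled mice whose tympanic bulla was opened without labyrinthectomy, although the treatment field of the labels names the operation for all 3 samples. Each group was thus 1 pooled library, with no replicate and no test over replicates, and a difference between groups cannot be told apart from a difference between the 3 libraries.

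The table held 5062 barcodes and 17428194 unique molecular identifiers (UMIs, counted molecules) in ULI, 4998 and 12768983 in ULC, and 4816 and 27019650 in the control. With a minimum of 200 genes per barcode, 4813 ULI, 4544 ULC and 4607 control cells were kept, with medians of 2100, 931 and 3177 UMIs. Cells were grouped into 28 clusters with the members and 37 related pathway genes left out of the clustering, and clusters were named from marker genes that include neither. Barcode names were serial numbers that recur in all libraries, so shared names tell nothing about shared cells. Cells of choroid plexus epithelium-like clusters made up 5.49% of ULI, 24.2% of ULC and 0.586% of control cells.

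The astrocyte-like class was 1 cluster, led by Ntsr2, Slc4a4, Gjb6 and Gja1, in which all 10 astrocyte markers were detected in every library. It held 334 ULI, 211 ULC and 303 control cells, with 638560, 321715 and 801754 summed UMIs. Levels are given in CPM, the UMIs of a gene per 1000000 UMIs of the class in that library, with exact 95% Poisson intervals in brackets, and log2 ratios of CPM carry exact 95% binomial intervals. These intervals cover counting error only, neither animals nor cells. A gene was called past 2-fold when its level differed by at least that factor and the libraries compared held at least 50 of its UMIs together.

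The level of each member across the cell classes is considered first. Slc1a2 was highest in astrocyte-like cells, at 11280 CPM in ULI, 8616 CPM in ULC and 8311 CPM in the control. The next class in every library was the OPC-like class (oligodendrocyte precursor cells), at 1179, 1070 and 866 CPM in ULI, ULC and control. The astrocyte-like level was 9.57, 8.05 and 9.60 times that of OPC-like cells, and the intervals of these classes did not overlap in any library. Among ependymal-like cells, which line the ventricle, Slc1a2 stood at 161, 152 and 129 CPM in ULI, ULC and control. In the microglia-like class, which serves as the reference for free RNA except for Slc1a3 and Glul, it stood at 27.4, 23.1 and 26.4 CPM.

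Slc1a3 was also highest in astrocyte-like cells. It stood at 5265 CPM in ULI, 2894 CPM in ULC and 5227 CPM in control astrocyte-like cells, and at 1209, 1292 and 623 CPM in ependymal-like cells of the same libraries. Astrocyte-like cells thus held 4.35, 2.24 and 8.40 times the ependymal-like level. Leptomeningeal fibroblast-like cells, 26, 30 and 27 in number, held Slc1a3 at 805, 176 and 786 CPM, and their intervals overlapped those of ependymal-like cells in ULI and in the control. OPC-like cells held 222, 126 and 262 CPM and microglia-like cells 140, 137 and 160 CPM, with intervals that overlapped in ULC. Endothelium-like cells held 7.30, 12.8 and 8.51 CPM, so for Slc1a3 the microglia-like level is not read as that of free RNA.

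Slc6a11 was measured at 3996 CPM in ULI, 3130 CPM in ULC and 6007 CPM in control astrocyte-like cells. In the other classes it reached at most 90.3 CPM, the value of ULI ependymal-like cells, which rested on 18 UMIs. The astrocyte-like level was 195, 188 and 213 times that of OPC-like cells and 225, 705 and 604 times that of microglia-like cells.

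Glul, which makes glutamine from glutamate and ammonia, was found at over 1000 CPM in several classes. It stood at 8716, 6260 and 8180 CPM in ULI, ULC and control astrocyte-like cells and at 4722, 3823 and 3057 CPM in mature oligodendrocyte-like cells. Leptomeningeal fibroblast-like cells held 6493, 4228 and 4176 CPM, endothelium-like cells 1934, 1546 and 2312 CPM, and microglia-like cells 1695, 1482 and 2761 CPM. Newly formed oligodendrocyte-like cells held 142, 191 and 246 CPM and neuron-like cells 263, 182 and 341 CPM, with intervals that overlapped in ULC and in the control.

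Slc1a1, often described as the glutamate transporter of neurons, was highest in newly formed oligodendrocyte-like cells of all 3 libraries. Its level there was 1227 CPM (1197 to 1258) in ULI, 883 CPM (850 to 917) in ULC and 1042 CPM (957 to 1133) in the control. Endothelium-like cells came next at 402, 386 and 409 CPM, followed by OPC-like cells at 303, 217 and 255 CPM. The intervals of endothelium-like and OPC-like cells overlapped in ULI only. Neuron-like cells held 96.8 CPM in ULI and 120 CPM in ULC, from 35 and 29 UMIs, and 0 UMIs in the 7 control cells. In astrocyte-like cells only 6 ULI, 15 ULC and 2 control UMIs of Slc1a1 were counted.

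Glud1, which converts glutamate to 2-oxoglutarate in mitochondria, was highest in astrocyte-like cells, at 686, 709 and 990 CPM in ULI, ULC and control. Pericyte-like cells held 308, 240 and 324 CPM, ependymal-like cells 211, 213 and 141 CPM, and OPC-like cells 103, 110 and 99.2 CPM.

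Abat, which degrades GABA, was highest in astrocyte-like cells at 451, 308 and 397 CPM in ULI, ULC and control. Neuron-like cells held 321, 190 and 155 CPM, newly formed oligodendrocyte-like cells 203, 173 and 224 CPM, and ependymal-like cells 110, 248 and 187 CPM. In ULC the intervals of the astrocyte-like, ependymal-like and neuron-like classes overlapped in that order.

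Maob was highest in ependymal-like cells of all 3 libraries. It stood at 406 CPM in ULI, 228 CPM in ULC and 286 CPM in control ependymal-like cells, ahead of choroid plexus epithelium-like cells at 216, 134 and 90.4 CPM and astrocyte-like cells at 75.2, 96.4 and 81.1 CPM. A single cell held 34.6% of the 81 Maob UMIs of the ULI ependymal-like class. In OPC-like cells 1, 2 and 0 Maob UMIs were counted in ULI, ULC and the control.

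Slc38a3 was present in astrocyte-like, ependymal-like, endothelium-like, OPC-like and choroid plexus epithelium-like cells. The class order differed between libraries. Endothelium-like cells were first in ULC at 305 CPM and in the control at 122 CPM, while astrocyte-like cells were first in ULI at 67.3 CPM, where endothelium-like cells held 21.9 CPM from 6 UMIs. The intervals of neighbouring classes in the first 3 places overlapped in each library.

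**Figure D1:**
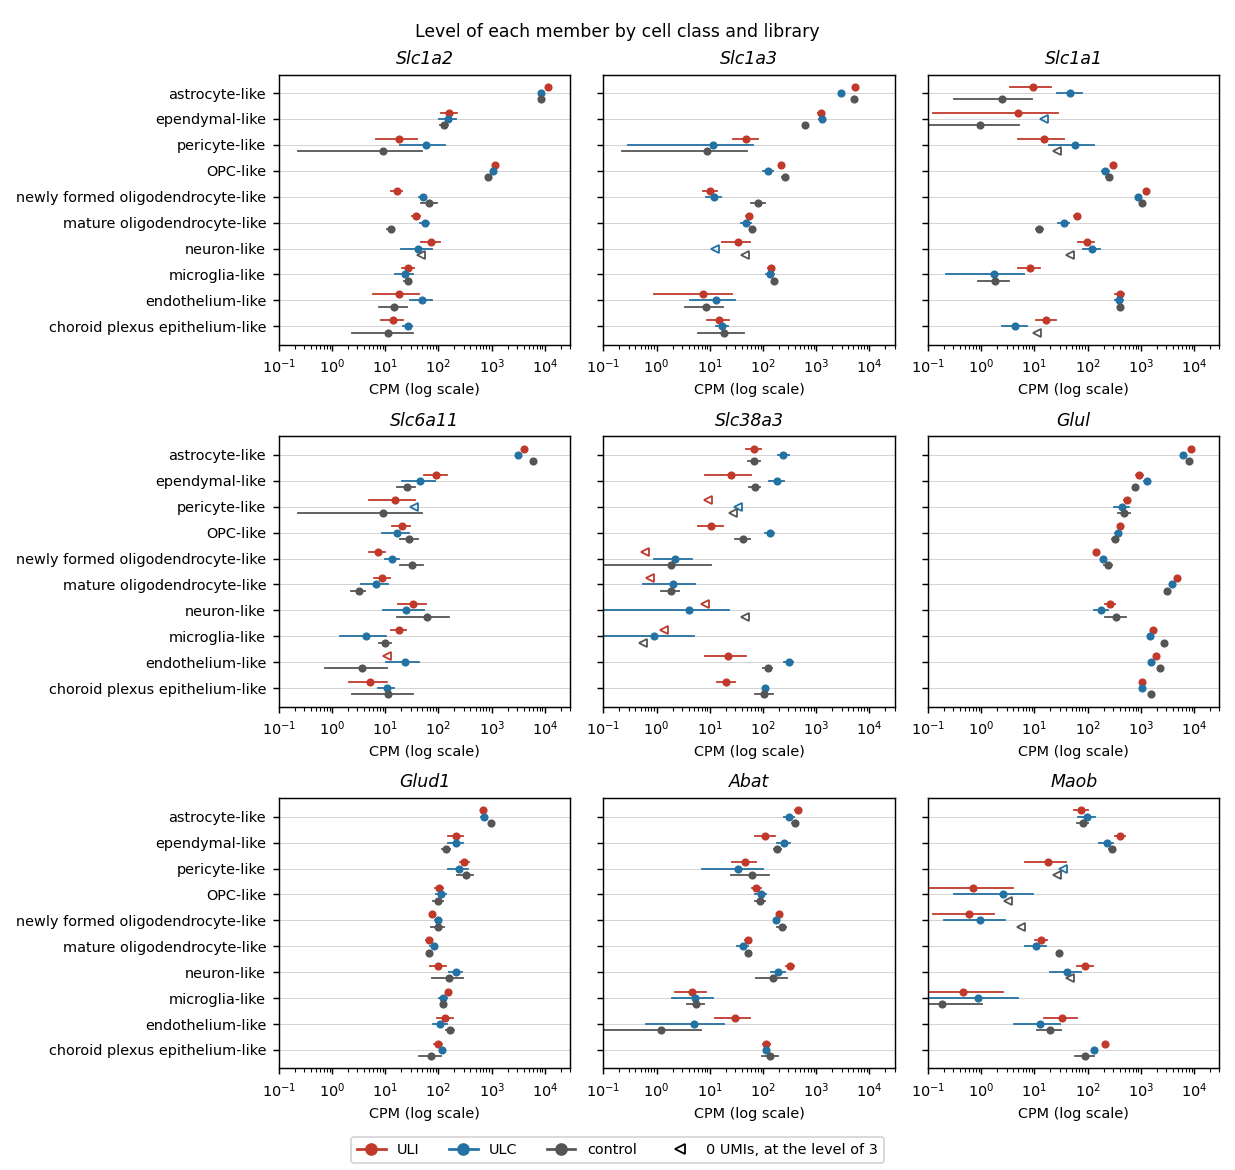
Level of each member in CPM (log axis) in 10 cell classes for ULI (red), ULC (blue) and control (grey), with exact 95% Poisson intervals. Open triangles mark classes with 0 UMIs, drawn at the level that 3 UMIs would give. Slc1a2, Slc1a3, Slc6a11, Glul, Glud1 and Abat are highest in astrocyte-like cells among the classes drawn, Slc1a1 in newly formed oligodendrocyte-like cells and Maob in ependymal-like cells.

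The share of cells with a UMI depends on depth, and control astrocyte-like cells were deeper, with a median of 2168 UMIs against 1475 in ULI and 1228 in ULC. Shares were therefore also taken after every cell was thinned to 1000 UMIs, which left 236 ULI, 128 ULC and 256 control astrocyte-like cells and left out 98, 83 and 47. After thinning, Slc1a2 was found in 98.3% of ULI, 97.7% of ULC and 96.1% of control cells, and Glul in 96.2%, 95.3% and 98.4%. Slc6a11 was found in 88.6%, 81.2% and 97.3%, and the ULI and ULC intervals (83.8 to 92.3% and 73.4 to 87.6%) lay below that of the control (94.4 to 98.9%). The shares at full depth were 86.8%, 82.0% and 97.0%. Slc38a3 was found in 2.97% of ULI, 18.0% of ULC and 4.30% of control cells after thinning, and in 5.39%, 19.9% and 10.2% at full depth.

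Thinned microglia-like cells, with median depths of 2236.5, 2358 and 3074 UMIs before thinning, gave the background for these shares. Slc1a2 was found in 1.55%, 0.840% and 1.99% of ULI, ULC and control microglia-like cells, Slc6a11 in 1.30%, 0.560% and 0.871%, and Slc38a3 in 0 of 772, 357 and 1607. Glul, which microglia-like cells hold themselves, was found in 73.4%, 66.7% and 87.5%. The zero shares allow up to 0.477%, 1.03% and 0.229% of cells with a UMI. Slc1a1 shares in astrocyte-like cells, at 1.27%, 2.34% and 0.391%, had intervals that overlapped the microglia-like shares of 0.518%, 0.280% and 0.187% and those of ULI and the control are read as background. In ULC the Slc1a1 level of astrocyte-like cells, 46.6 CPM (26.1 to 76.9) from 15 UMIs, lay above that of microglia-like cells, 1.78 CPM (0.215 to 6.42), and at full depth 5.21% of astrocyte-like against 0.414% of microglia-like cells held a UMI.

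**Figure D2:**
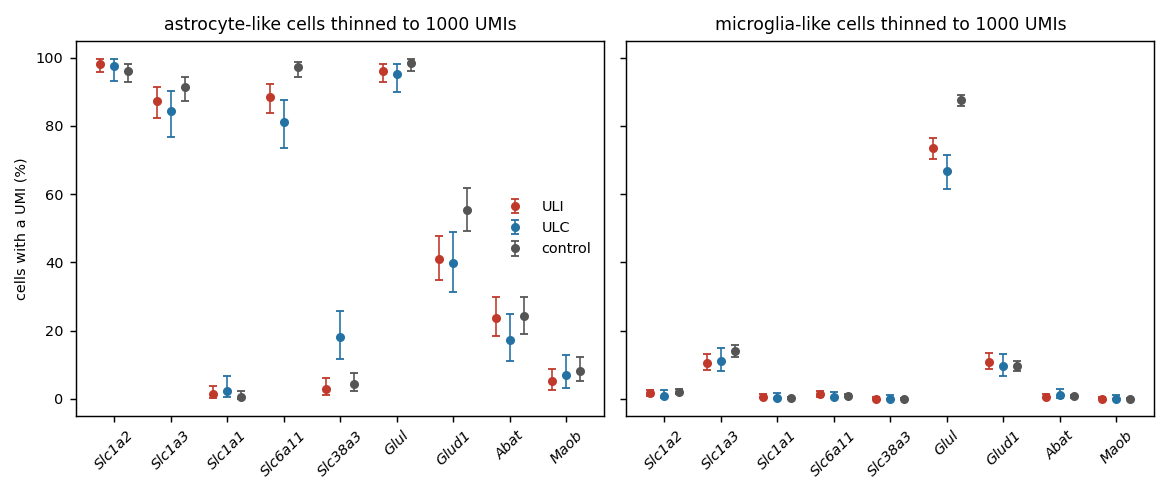
Share of cells with at least 1 UMI of each member (percent, with exact 95% binomial intervals) after thinning to 1000 UMIs, in astrocyte-like cells (left) and microglia-like cells (right), for ULI, ULC and control. Slc6a11 and Glud1 were found in fewer ULI and ULC than control astrocyte-like cells, and Slc38a3 in more ULC cells, at 18.0%.

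The comparison of the operated side with the control asks how these genes differed in astrocyte-like cells 1 day after loss of the ipsilateral vestibular input. In ULI, Slc1a2 was higher than in the control by 0.44 on the log2 scale (0.39 to 0.49), and Slc6a11 and Glud1 were lower. Slc6a11 differed by -0.59 (-0.66 to -0.52) and Glud1 by -0.53 (-0.70 to -0.36), from 438 UMIs in ULI and 794 in the control. Glul differed by 0.09 (0.04 to 0.14). For Slc1a3 (0.01, -0.06 to 0.08), Abat (0.19, -0.05 to 0.42), Slc38a3 (-0.03, -0.64 to 0.58) and Maob (-0.11, -0.68 to 0.45) the interval included 0. Of the 8 members with at least 50 UMIs (all but Slc1a1), 0 were past 2-fold, beside 11.9% of the 4304 genes that reached the same number of UMIs. Their median log2 ratio was -0.01, and that of all these genes 0.01.

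The comparison of the opposite side with the control gave a different set. In ULC, Slc6a11 was lower by -0.94 (-1.04 to -0.84) and Slc1a3 by -0.85 (-0.96 to -0.75) on the log2 scale, with 1007 Slc6a11 UMIs in ULC against 4816 in the control. Glud1 differed by -0.48 (-0.70 to -0.27), Glul by -0.39 (-0.46 to -0.31) and Abat by -0.37 (-0.71 to -0.04). Slc38a3 stood at 242 CPM (192 to 303) in ULC against 68.6 CPM (51.7 to 89.3) in the control, a log2 ratio of 1.82 (1.30 to 2.35). For Slc1a2 (0.05, -0.01 to 0.12) and Maob (0.25, -0.42 to 0.89) the interval included 0. Of the 8 members with at least 50 UMIs, 1 was past 2-fold (Slc38a3), beside 18.2% of 3509 genes. The members' median was -0.38, and the median of all these genes was -0.20. With scaling factors that bring the median of all genes to 0.00 (TMM, trimmed mean of M values), Slc6a11 stood at -0.75, Slc1a3 at -0.66, Glud1 at -0.29, Glul at -0.19, Abat at -0.17, Slc1a2 at 0.25, Maob at 0.44 and Slc38a3 at 2.02, so that the readings for Abat and Slc1a2 depended on the scaling.

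The sides of the operated mice were compared directly. ULI astrocyte-like cells had higher Slc1a3 than ULC cells by 0.86 (0.76 to 0.97) on the log2 scale, higher Abat by 0.55 (0.22 to 0.90), higher Glul by 0.48 (0.40 to 0.55), higher Slc1a2 by 0.39 (0.33 to 0.45) and higher Slc6a11 by 0.35 (0.25 to 0.46). Slc38a3 was lower in ULI by -1.85 (-2.42 to -1.29), from 43 UMIs against 78 in ULC. Glud1 (-0.05, -0.28 to 0.19) and Maob (-0.36, -1.04 to 0.34) had intervals that included 0. TMM factors (1.05 in ULI and 0.912 in ULC) lower every ratio of this comparison and bring the median of all genes to 0.07. The reading for Glud1 therefore depended on the scaling. Of the 8 members with at least 50 UMIs, 1 was past 2-fold, beside 17.3% of 3021 genes, and the median was 0.37 against 0.27 for all these genes. The 3 comparisons share libraries and are not independent of each other.

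**Figure D3:**
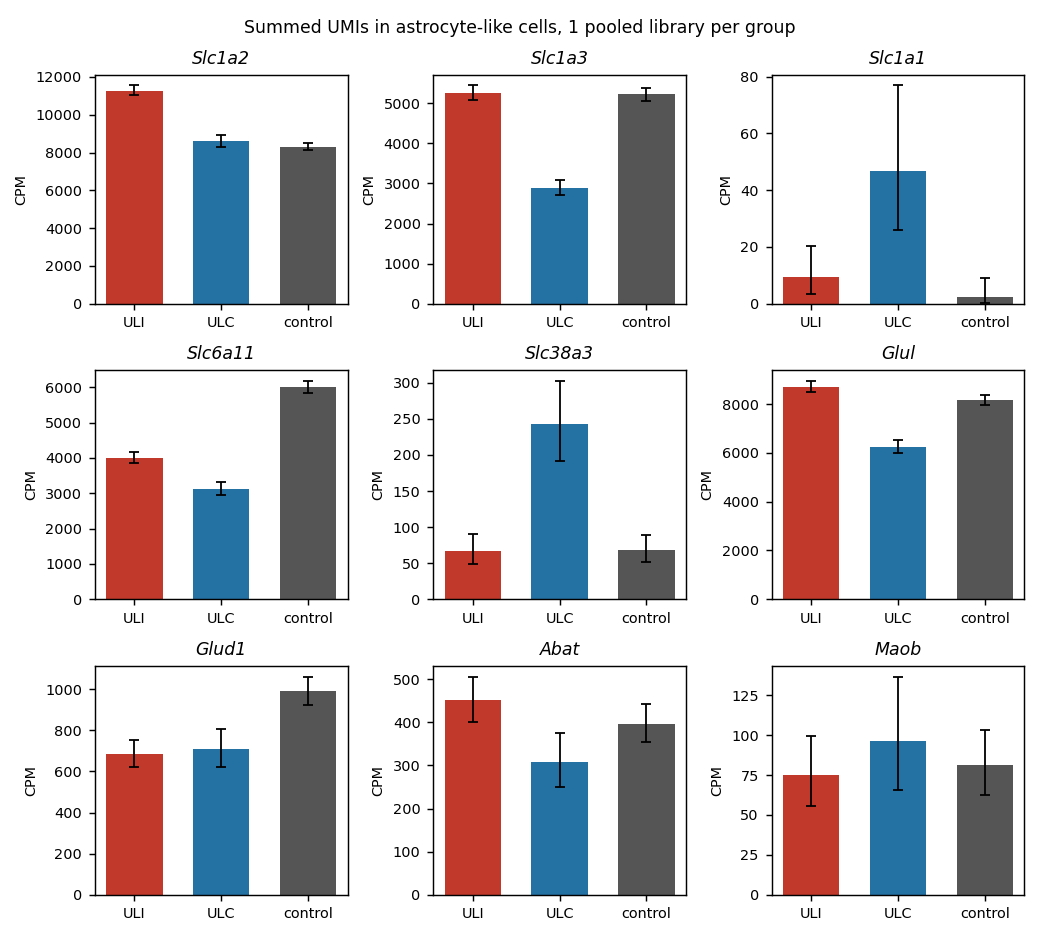
Level of the 9 members in astrocyte-like cells in CPM (linear axes that start at 0, scaled for each gene) for ULI, ULC and control, with exact 95% Poisson intervals. Slc6a11 is lower in both ULI and ULC than in the control, Slc1a3 is 2894 CPM in ULC, below both other libraries, and Slc38a3 is high in ULC alone.

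Other measures moved with the libraries in these cells. Mitochondrial UMIs made up a median of 23.9% in ULI, 25.4% in ULC and 17.5% in control astrocyte-like cells. Among the 119 ULI, 70 ULC and 170 control cells with at most 20% mitochondrial UMIs, Slc6a11 stood at 4073, 3229 and 6323 CPM, Slc1a3 at 6754, 3458 and 6072 CPM, and Slc38a3 at 100.5, 291 and 71.9 CPM. Among the cells over 20%, Slc6a11 stood at 3937, 3076 and 5346 CPM, Slc1a3 at 4112, 2587 and 3463 CPM, and Slc38a3 at 41.7, 216 and 61.6 CPM. On either side of that limit Slc6a11 and Slc1a3 were lower in ULC than in the control, and Slc1a3 was higher in ULI than in the control with intervals that did not overlap, although over all cells its ULI ratio was 0.01. The intervals of Slc38a3 in ULI and the control overlapped on both sides. Choroid plexus markers summed to 686 CPM in ULI, 7230 CPM in ULC and 142 CPM in control astrocyte-like cells, with 6, 8 and 6 of 8 markers detected and Otx2 at 0 in ULI and in the control. With mitochondrial, ribosomal, haemoglobin and choroid plexus genes taken out of the totals, the ULC median of the members was -0.20, beside -0.02 for all genes. The part of choroid plexus RNA in the values of single members was not tested beyond this.

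Slc6a11, Slc1a3 and Glul, the 3 members with over 1000 CPM that were lower in ULC astrocyte-like cells than in the control, are shown by the 250 bases before their annotated starts (RefSeq, build GRCm38.p6). Slc6a11 occupies chr6:114131241-114249952 on the + strand, Slc1a3 chr15:8634124-8710764 on the - strand and Glul chr1:153899944-153909723 on the + strand (GENCODE vM21, GRCm38), and the counts are per gene, without exons or UTRs told apart. The sequences below lie at chr6:114130991-114131240 (+), chr15:8710808-8711057 (-) and chr1:153899679-153899928 (+), written in the direction of the gene, and capitals mark 5 motifs, the TATA box (TATAAA), the CCAAT box (CCAAT), the GC box (GGGCGG), the glucocorticoid receptor half-site (TGTTCT) and an E-box (CAGCTG), searched on both strands without regard to overlap.
Slc6a11: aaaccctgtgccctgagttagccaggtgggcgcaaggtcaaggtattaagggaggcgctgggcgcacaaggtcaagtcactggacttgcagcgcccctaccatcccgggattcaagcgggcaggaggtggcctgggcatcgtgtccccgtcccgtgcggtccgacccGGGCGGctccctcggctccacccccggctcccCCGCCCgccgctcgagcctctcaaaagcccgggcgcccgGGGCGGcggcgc
Slc1a3: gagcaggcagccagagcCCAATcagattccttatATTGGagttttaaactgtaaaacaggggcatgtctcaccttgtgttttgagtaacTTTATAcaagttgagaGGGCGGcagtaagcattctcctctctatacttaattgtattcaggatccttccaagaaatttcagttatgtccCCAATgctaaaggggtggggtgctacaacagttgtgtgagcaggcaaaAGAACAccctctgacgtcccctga
Glul: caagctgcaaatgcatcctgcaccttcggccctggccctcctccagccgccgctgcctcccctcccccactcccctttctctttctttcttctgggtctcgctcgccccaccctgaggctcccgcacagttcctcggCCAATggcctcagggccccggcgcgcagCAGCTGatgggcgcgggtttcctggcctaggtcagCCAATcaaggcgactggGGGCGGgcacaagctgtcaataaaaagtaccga
The Slc6a11 window had the GC box at 3 places and none of the other 4 motifs. The Glul window had the CCAAT box at 2 places and the E-box and GC box at 1 each, and the Slc1a3 window had the CCAAT box at 3 places and the TATA box, GC box and glucocorticoid receptor half-site at 1 each. The GC box was thus in all 3 windows, and in 32.7% of 32851 windows of the same length. Among the other members with a window, those of Slc1a1 and Glud1 also had the GC box and that of Slc1a2 did not. The Slc1a2 window, however, lay inside the gene, 47779 bases from its GENCODE start, and the bases before that start were not searched. Of the 32851 windows, the CCAAT box was in 33.8%, the glucocorticoid receptor half-site in 16.1%, the E-box in 4271 windows and the TATA box in 12.4%. GC content was 71.2% for Slc6a11, 64.8% for Glul and 44.8% for Slc1a3, against a median of 52.4% over all windows. These matches describe letters and not binding. Of the 9 members 6 had such a window.

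In the GENCODE vM21 annotation of build GRCm38, Slc1a2 lies at chr2:102658659-102790784 (+), Slc1a1 at chr19:28835049-28913960 (+), Glud1 at chr14:34310727-34345265 (+), Abat at chr16:8513429-8621568 (+), Slc38a3 at chr9:107650634-107669530 (-) and Maob at chrX:16709282-16817366 (-). Slc1a2 (Gm13872), Slc1a1 (Gm5822 and 4430402I18Rik), Slc6a11 (Gm8132) and Glul (Teddm2) overlap a gene on the opposite strand, and Slc1a3 (Gm37310) and Glul (Mir8114) one on the same strand. Whether the counting used strand is not given in the sources used here, so reads of these partners cannot be told apart.

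Ependymal-like cells, whose cilia move cerebrospinal fluid, numbered 61 in ULI, 55 in ULC and 156 in the control. All 9 ependymal markers were detected in each library, and choroid plexus markers summed to 2840, 11100 and 24900 CPM, with 5, 7 and 8 of 8 detected. The part of plexus RNA in these values was not tested. Slc1a3 was higher in ULI than in the control by 0.96 (0.74 to 1.17) and in ULC by 1.05 (0.84 to 1.26) on the log2 scale, and Glul was higher in ULC by 0.73 (0.52 to 0.94). A single cell held 75 of the 255 ULC Slc1a3 UMIs, and without the cell of each library richest in Slc1a3 the ULC ratio was 0.72 (0.47 to 0.96). It was 0.35 in cells with at most 20% mitochondrial UMIs, where the ULI ratio was 0.15, and with doublets left out the ratio was 0.06 in ULI and 0.68 in ULC, so that the size of both differences depended on the cells kept.

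Slc38a3 was measured in ependymal-like cells with 5 UMIs in ULI, 36 in ULC and 74 in the control, which gave 25.1, 182 and 69.5 CPM. The log2 ratios were -1.47 (-3.13 to -0.18) in ULI and 1.39 (0.78 to 1.99) in ULC. Maob differed by 0.50 (0.13 to 0.86) in ULI, but by 0.02 (-0.43 to 0.45) without the richest cell of each library, and by -0.33 (-0.81 to 0.13) in ULC. Abat was lower in ULI by -0.76 (-1.47 to -0.12). Of the 7 members with at least 50 UMIs, 1 was past 2-fold in ULI (Slc38a3, lower, but at -0.90 and under 2-fold with doublets left out), beside 18.8% of genes, and 2 in ULC (Slc1a3 and Slc38a3, higher), beside 19.6%.

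The oligodendrocyte lineage runs from precursor cells through newly formed to mature, myelinating oligodendrocytes, and Slc1a2, Slc1a1, Abat and Glul stood highest at different stages. OPC-like cells numbered 466 in ULI, 248 in ULC and 245 in the control, newly formed oligodendrocyte-like cells 897, 904 and 53, and mature oligodendrocyte-like cells 932, 883 and 1405. Clusters within these classes were unevenly shared between libraries, and median depth of the newly formed class was 3381 UMIs in ULI, 693 in ULC and 8401 in the control. Slc1a2 stood at 1179, 1070 and 866 CPM in OPC-like cells but at 16.4, 51.0 and 66.3 CPM in newly formed and 37.7, 55.4 and 12.6 CPM in mature oligodendrocyte-like cells. Slc1a1 had its highest level in the newly formed class, given above, and stood at 63.0, 36.1 and 12.4 CPM in mature cells. Abat shared that pattern, at 203, 173 and 224 CPM in newly formed cells against 74.7, 89.7 and 87.7 CPM in OPC-like cells and 51.9, 41.2 and 51.3 CPM in mature cells. Glul was highest at the mature stage. After thinning to 1000 UMIs, Slc1a1 was found in 65.3%, 46.6% and 56.0% of newly formed cells, against 20.2%, 17.1% and 19.8% of OPC-like and 6.01%, 1.56% and 0.842% of mature cells.

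**Figure D4:**
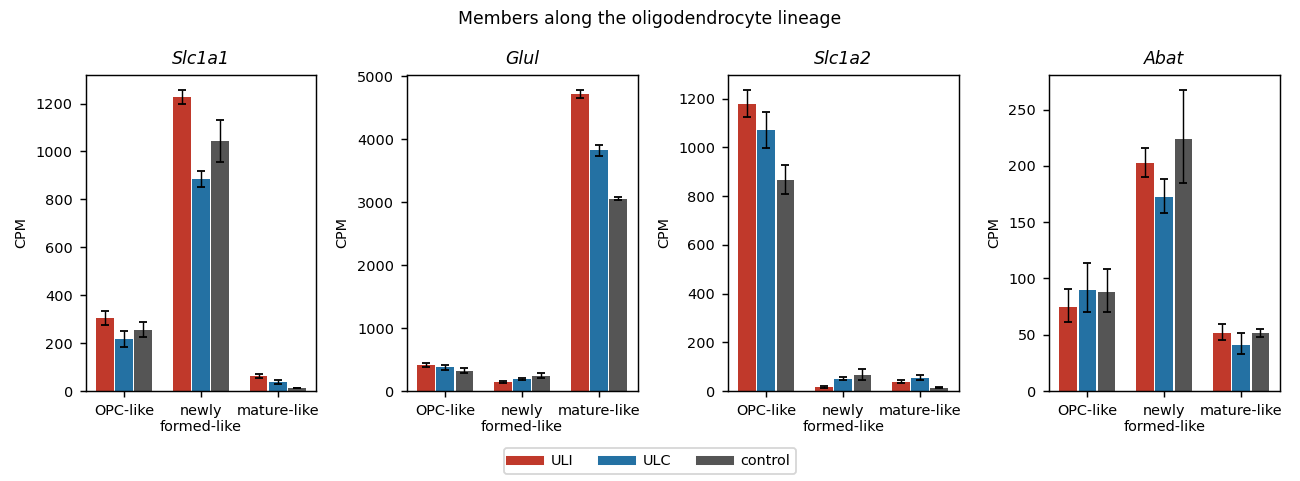
Level in CPM (linear axes from 0) of Slc1a1, Glul, Slc1a2 and Abat in OPC-like, newly formed and mature oligodendrocyte-like cells for ULI, ULC and control, with exact 95% Poisson intervals. Slc1a1 and Abat are highest in newly formed, Slc1a2 in OPC-like and Glul in mature cells of every library.

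In OPC-like cells, Slc1a2 was higher than in the control by 0.45 (0.32 to 0.57) in ULI and 0.31 (0.17 to 0.45) in ULC on the log2 scale, and Glul was higher in ULI by 0.37 (0.17 to 0.57). Slc1a3 was lower in ULC by -1.06 (-1.41 to -0.72), which was -0.96 with TMM factors and -0.91 (-1.74 to -0.19) within the cluster that held cells of all libraries (466 ULI, 79 ULC and 243 control cells). Slc38a3 stood at 10.6 CPM in ULI, 133 CPM in ULC and 41.8 CPM in the control, with log2 ratios of -1.98 (-2.94 to -1.09) and 1.67 (1.14 to 2.24) against the control. Within the same cluster the Slc38a3 ratios were -1.88 and 1.84, the Slc1a2 ratios 0.44 (0.32 to 0.57) in ULI and 0.15 (-0.16 to 0.43) in ULC, and the Glud1 ratio in ULC 1.14 (0.44 to 1.78), from 25 ULC UMIs, against 0.15 (-0.29 to 0.59) over the class. In ULI 1 of 8 members with at least 50 UMIs was past 2-fold (Slc38a3), beside 8.76% of genes, and in ULC 2 of 7 (Slc38a3 and Slc1a3), beside 12.3%.

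Slc38a3 differed in this way beyond astrocyte-like, ependymal-like and OPC-like cells. Endothelium-like cells held 6 UMIs in ULI, 119 in ULC and 100 in the control, for log2 ratios of -2.47 (-3.95 to -1.30) and 1.32 (0.93 to 1.72) against the control. Choroid plexus epithelium-like cells gave -2.36 (-3.17 to -1.55) in ULI and 0.06 (-0.50 to 0.67) in ULC. ULC was thus higher than the control in 4 of these 5 classes by an interval above 0, and ULI was lower in all but astrocyte-like cells. Mature oligodendrocyte-like cells held 0, 4 and 28 Slc38a3 UMIs. A difference of these cell types and a difference of the libraries as a whole cannot be told apart.

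In mature oligodendrocyte-like cells Glul, from 19024 ULI, 7520 ULC and 46576 control UMIs, was higher by 0.63 (0.60 to 0.65) in ULI and 0.32 (0.29 to 0.36) in ULC on the log2 scale. Slc1a1 was higher by 2.35 (2.07 to 2.62) and 1.54 (1.13 to 1.94), Slc1a2 by 1.58 (1.27 to 1.90) and 2.14 (1.78 to 2.48), and Slc6a11 by 1.46 (0.79 to 2.12) and 1.07 (0.06 to 1.98), while Maob was lower by -1.13 (-1.56 to -0.72) and -1.46 (-2.16 to -0.83). In each library 8 of 9 members reached 50 UMIs with the control, of which 4 were past 2-fold in ULI, beside 20.7% of genes, and 4 in ULC, beside 26.8%. Glud1 stood at 66.8, 80.8 and 65.7 CPM. Slc6a11 was low throughout, at 8.69, 6.61 and 3.15 CPM from 35, 13 and 48 UMIs, and its ULC ratio was 0.79, with an interval that included 0, without the richest cell of each library. Microglia-like cells, the reference for free RNA, held Slc6a11 at 17.8, 4.44 and 9.95 CPM. The mature level thus lay below that reference in ULI and the control, so its ULI ratio compares levels under the reference. Astrocyte markers in mature cells summed to 38.5, 53.9 and 17.9 CPM, with all 10 detected in each library, which is the order of the libraries for Slc1a2. Their part in the Slc1a2 and Slc6a11 values was not tested. Markers of newly formed cells summed to 664, 668 and 1100 CPM, highest in the control, where Slc1a1 was lowest. Their part in the Slc1a1 values was not tested.

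Because clusters within the mature class were taken from different libraries, ratios were also formed within a cluster. In cluster 0 (466 ULI, 96 ULC and 714 control cells) Glul differed by 1.17 (1.10 to 1.23) in ULI and 0.18 (-0.02 to 0.36) in ULC, and in cluster 6 (177 ULI and 610 control cells) by 1.10 (1.07 to 1.13) in ULI. Most ULC cells were in cluster 9 (508 ULC and 64 control cells), where the ULC ratio was 0.66 (0.59 to 0.74) for Glul, 1.73 for Slc1a2, with an interval above 0, 3.29 (1.36 to 6.38) for Slc1a1, from 2 control UMIs, and -1.71 (-2.92 to -0.53) for Maob. The ULC ratio of Glul over the whole class was -0.05 at a clustering resolution of 0.5 and -0.01 at 2, so that its direction depended on the clustering. Slc1a1 differed by 1.97 (1.07 to 2.91) in ULI within cluster 0 and by 1.54 (1.14 to 1.93) within cluster 6, and Slc1a2 by 2.38 (1.62 to 3.18) and 1.79 (1.41 to 2.17). Cluster 10 (264 ULI, 274 ULC and 17 control cells) had too few control cells for a ratio. The ULI ratios of Slc1a1 within clusters 0 and 6, given above, were over 1 without it. Cluster 10 held 143 of the 254 ULI and 21 of the 71 ULC Slc1a1 UMIs of the class, so the class ratio of Slc1a1 in ULI rested in part on it. Glul there stood at 468 CPM with the libraries summed. Maob differed by -0.91 (-2.33 to 0.30) within cluster 0 and -0.75 (-1.25 to -0.28) within cluster 6, under 2-fold in both. Slc1a3, at -0.18 in ULI over the class, differed by 1.10 (0.56 to 1.63) within cluster 0 and by 0.10 (-0.16 to 0.35) within cluster 6.

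Newly formed oligodendrocyte-like cells had Slc1a1 higher in ULI by 0.24 (0.11 to 0.36) and lower in ULC by -0.24 (-0.37 to -0.10) against the control, and Glul lower in ULI by -0.79 (-1.06 to -0.51). Slc1a3 (-3.00 in ULI and -2.78 in ULC), Slc6a11 (-2.16 and -1.26) and, in ULI, Slc1a2 (-2.02) were past 2-fold lower, which made 3 of 7 members in ULI, beside 14.1% of genes, and 2 of 7 in ULC, beside 18.1%. These calls rested on the 53 control cells. The control cell richest in the gene held 36 of 43 Slc1a3 UMIs, all 17 Slc6a11 UMIs and 22 of 35 Slc1a2 UMIs. Without the richest cell of each library the ratio was -0.62 (-1.78 to 0.78) for Slc1a3 and -0.83 (-1.70 to 0.14) for Slc1a2 in ULI, and -0.78 (-2.03 to 0.68) for Slc1a3 in ULC, while Slc6a11 had 0 control UMIs. Glul differed by -0.16 (-0.50 to 0.19) in ULI when treated in the same way, and Slc1a1 by 0.27 (0.14 to 0.40) in ULI and -0.21 (-0.34 to -0.07) in ULC. Within cluster 13 (442 ULI and 38 control cells, most of the control's) the ULI ratio of Slc1a1 was 0.12 (-0.01 to 0.26). That cluster held only 6 ULC cells. Clusters 5, 16 and 20 held 547, 140 and 211 ULC cells but 2, 13 and 0 control cells, so no ULC ratio was formed within a cluster. Slc1a1 stood at 1198, 665 and 861 CPM in these 3 clusters and at 1323 CPM in cluster 13, with the libraries summed. Glud1 stood at 77.0, 98.4 and 98.5 CPM in newly formed cells, where Maob had 3, 3 and 0 UMIs and Slc38a3 0, 7 and 1.

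**Figure D5:**
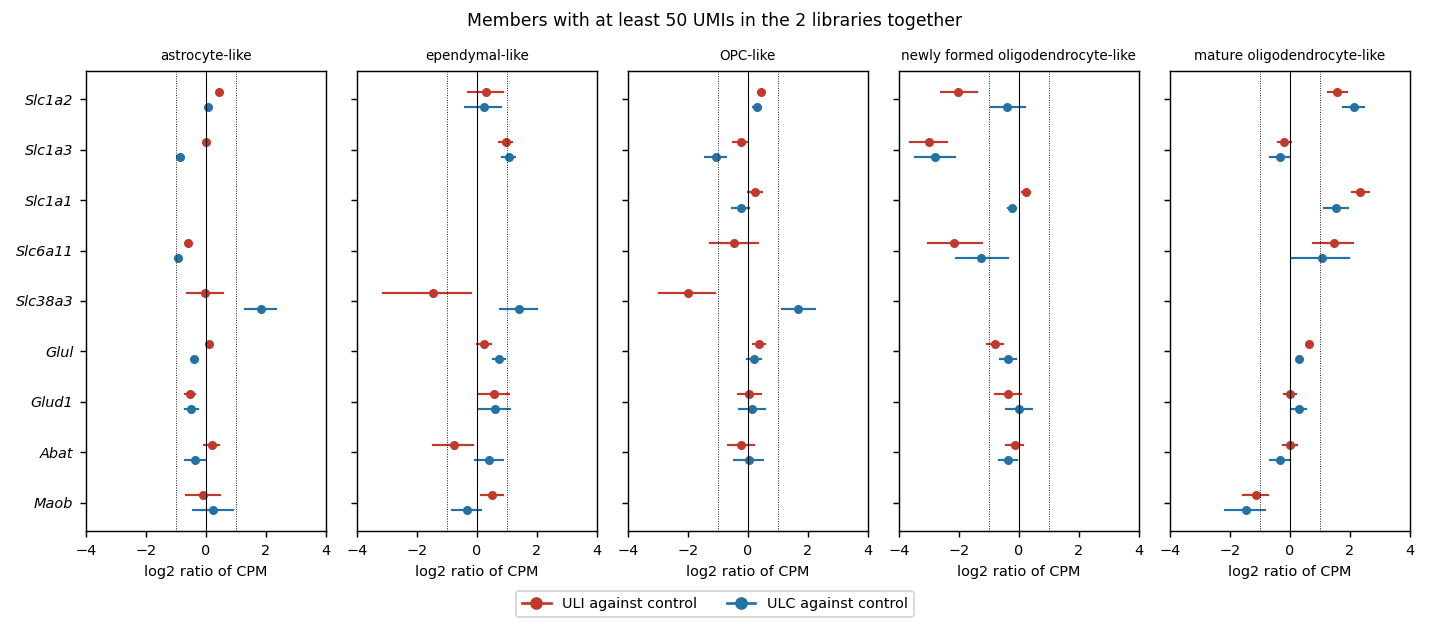
Log2 ratio of CPM of the members with at least 50 UMIs, ULI against control (red) and ULC against control (blue), in 5 cell classes, with exact 95% binomial intervals. The solid line is no difference and the dotted lines mark 2-fold. Slc38a3 lies on opposite sides of the line in ULI and ULC in ependymal-like and OPC-like cells, and the 3 low members of newly formed oligodendrocyte-like cells rest on few control cells.

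Pericyte-like cells, which wrap capillaries, numbered 157 in ULI, 53 in ULC and 41 in the control. Glul stood at 552, 446 and 486 CPM and Glud1 at 308, 240 and 324 CPM, with log2 ratios in ULI of 0.18 (-0.26 to 0.65) and -0.07 (-0.64 to 0.52). These were the only 2 members with at least 50 UMIs, and 0 were past 2-fold, beside 16.4% of genes. Slc1a2, Slc1a3, Slc1a1, Slc6a11, Maob and Abat had at most 16 UMIs in a library, and Slc38a3 had none.

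Neuron-like cells numbered 72 in ULI, 86 in ULC and 7 in the control, too few in the control for a comparison. Abat stood at 321 CPM (265 to 385) in ULI against 190 CPM (139 to 254) in ULC, a log2 ratio of 0.75 (0.25 to 1.28), and Glud1 at 99.6 CPM in ULI against 211 CPM in ULC, a ratio of -1.08 (-1.74 to -0.44). For Slc1a1 the ratio was -0.31 (-1.06 to 0.45). Of 4 members with at least 50 UMIs 1 was past 2-fold (Glud1), beside 28.6% of genes, and single cells held 27.8% and 27.5% of the ULI and ULC Glud1 UMIs. The median of all these genes was 0.22. Of the pathway list 7 of 18 were past 2-fold, with Gad2 and Atp1b2 higher and Slc17a7, Slc32a1, Slc6a5, Got2 and Aldh2 lower in ULI. The part of a different mix of neurons in the Abat and Glud1 ratios was not tested. With the 3 libraries summed, 29 cells with UMIs of GABA or glycine genes and none of vesicular glutamate carriers held Slc1a1 at 196 CPM (126 to 289) and Abat at 368 CPM (270 to 489), and 99 cells with vesicular glutamate carriers only held 78.2 CPM (54.5 to 109) and 237 CPM (194 to 286), while 6 cells had UMIs of both kinds and 31 of neither. Maob was counted with 41 UMIs in the glutamate carrier cells and 0 in the GABA or glycine cells, and in ULC 1 neuron-like cell held 80.0% of its UMIs. A separate cluster of 35 cells, all from ULI, was led by Calb1, Car8 and Ppp1r17 and had no marker of the neuron list among its 10 leading genes. It held Abat at 343 CPM and no Slc1a1, Slc1a2, Slc1a3, Glul or Maob UMI. Of the pathway list it held Slc1a6, another glutamate transporter, at 1003 CPM and Gad1, which makes GABA, at 2926 CPM.

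The other genes of the pathway in astrocyte-like cells were taken from a list of 37 carriers, enzymes and partners. In ULI against the control 18 of them had at least 50 UMIs and 0 were past 2-fold, beside 11.9% of all genes. In ULC against the control these counts were 18 and 0, beside 18.2%. There were 2 intervals above 0 and 7 below in ULI, and 3 above and 7 below in ULC. No count of intervals over all genes is given beside these, so they are not read as particular to the list. The median was -0.13 in ULI and -0.23 in ULC, beside 0.01 and -0.20 for all genes. By group, the glutamate and neutral amino acid carriers (4 measured) had a median of -0.06 in ULI and -0.62 in ULC, the glutamine carriers (2 measured) 0.21 and 0.01, and the breakdown and transamination enzymes (4 measured) -0.16 and -0.11. Near the 2-fold line were Atp1b2, a subunit of the sodium pump that supplies the gradient for uptake, at 11880 CPM in ULI, 8448 CPM in ULC and 16800 CPM in the control, and Slc38a2, a glutamine carrier, at 155, 155 and 81.1 CPM. These genes were named after their values were seen.

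In the other classes, pathway genes among the 2 with the most UMIs are given. In ependymal-like cells Atp1b2 stood at 1510, 1297 and 1505 CPM in ULI, ULC and control and Slc38a1, a glutamine carrier, at 1099, 730 and 970 CPM. In OPC-like cells Atp1b2 stood at 1521, 1307 and 1455 CPM, and in pericyte-like cells at 2045, 2160 and 3086 CPM. In newly formed oligodendrocyte-like cells Slc38a2 stood at 311, 272 and 269 CPM. In neuron-like cells Slc17a6, a vesicular glutamate carrier, stood at 1477, 909 and 838 CPM and Got1, an aspartate aminotransferase, at 617, 760 and 388 CPM. In mature oligodendrocyte-like cells Slc38a2 stood at 748, 672 and 313 CPM and Aldh9a1, an aldehyde dehydrogenase that can form GABA, at 136, 91.0 and 134 CPM. Of the pathway list, 9 of 18 measured genes were past 2-fold in mature oligodendrocyte-like cells of ULI, beside the 20.7% of all genes, and 9 of 18 in ULC, beside 26.8%, with 7 higher and 2 lower in each.

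Genes with the pattern most like that of a member were sought over 38 sums of a class in a library, among 9969 genes, by Pearson correlation of log2(CPM + 1). The sums share libraries, depth and the clustering, so the values are descriptions. Slc1a2 was closest to Ntsr2 (0.898), Ncan (0.853) and Rgs20 (0.839), Slc1a3 had Slc7a11 (0.822), Gjb6 (0.776) and Slc41a1 (0.749), and Slc1a1 had Rundc3b (0.804), Gpr17 (0.801) and Cdh13 (0.796). Slc6a11 was closest to Acsbg1 (0.884), Agt (0.880) and Pgm2 (0.837), Glul had Selenop (0.779), Nfe2l2 (0.701) and Slc3a2 (0.683), and Glud1 had Lrrc8a (0.776), Pgm2 (0.754) and Ppp1r3c (0.715). Abat was closest to Tspan3 (0.861), Casc4 (0.841) and Mboat2 (0.835), Slc38a3 had Sox9 (0.842) and Nebl (0.817), and Maob had Prdx6 (0.820), Sox9 (0.770) and Hspb8 (0.768). Ntsr2, Acsbg1, Agt, Gjb6, Gpr17 and Sox9 are among the markers that named the classes.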

How the data were processed

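The deposited table held UMI counts per gene and barcode as whole numbers, not normalised. Per the labels and the study's methods the authors processed reads with CASAVA 1.8, UMI-tools and Seurat on build mm10; aligner, annotation and cell calling were not given in the sources used here, and the sources name different capture platforms. Columns were assigned to libraries by their prefix, and 0 columns belonged to no sample.

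Barcodes with at least 200 genes (13964 of 14876) were scaled to 10000 UMIs, logged and clustered with scanpy 1.11.5 and leidenalg 0.10.2 (2000 variable genes less 17 members and pathway genes, 30 principal components, 20 neighbours, resolution 1, seed 1). Clusters were named from 130 markers of 20 classes. Doublets were kept, since Scrublet called only 4 ULI, 1 ULC and 44 control cells. Where doublets were left out, the 5% of cells with the highest score were dropped in ULI and ULC (259 and 239 cells). In the control only the 44 called cells were dropped, so the filter differed between the libraries compared. Raw counts were summed per class and library. Exact Poisson and binomial intervals came from scipy 1.17.1, and code was tested on simulated data. With 1 library per group no test between groups was made; edgeR 4.0.16 and DESeq2 1.42.0 (R 4.3.3) supplied only alternative scaling factors. A share of 0 was given its exact binomial upper bound, and a ratio against 0 UMIs took 3 UMIs in place of 0. Total UMIs per library ranged from 12768983 to 27019650, and genes with few UMIs have wide intervals.

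The members and lists were chosen with earlier results of these data known. The rule named every member in each class, pathway genes past 2-fold in astrocyte-like cells (there were 0; Atp1b2 and Slc38a2 were chosen there after their values were seen) or with the 2 highest UMI counts elsewhere, and the 3 genes most like each member by correlation. Some genes that this rule selects are not reported here. Alternatives concerned clustering, cell filters, doublets, scaling, the floor of UMIs, subtraction of the microglia-like level and thinning.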

Additional observations from a re-analysis of the deposited data

Results flagged for a closer look

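Differences of opposite direction, with intervals on either side of 0, were singled out; each library is a single pool, the comparisons share the control, and none of these differences was itself tested. Between the sides of operated mice, Slc38a3 stood at log2 ratios of -1.98 in ULI and 1.67 in ULC against the control in OPC-like cells, and at -1.47 and 1.39 in ependymal-like cells. Glul in astrocyte-like cells stood at 0.092 in ULI and -0.39 in ULC, and Slc1a1 in newly formed oligodendrocyte-like cells at 0.24 in ULI and -0.24 in ULC, although within the cluster that held most control cells its ULI ratio was 0.12 (-0.01 to 0.26). That cluster held only 6 ULC cells, so the ULC value compares cells of largely different clusters.

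Between cell classes in the same comparison, Slc1a2 in ULI stood at 0.44 in astrocyte-like and -2.02 in newly formed oligodendrocyte-like cells, the second value resting on 1 control cell as described above. Slc6a11 in ULI stood at -0.59 in astrocyte-like and 1.46 in mature oligodendrocyte-like cells, and in ULC at -0.94 and 1.07, the last value being 0.79, with an interval that included 0, without the richest cell of each library. The Slc6a11 levels of mature cells in ULI and the control lay below those of microglia-like cells, as given above. Slc1a3 in ULC stood at -0.85 in astrocyte-like and 1.05 in ependymal-like cells, the second value being 0.72 without the richest cell of each library and 0.35 in cells with at most 20% mitochondrial UMIs.

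The barcodes with fewer than 200 genes, which entered no comparison, also held UMIs of the members. The 9 members together made up 4575 CPM (4224 to 4947) of 249 such barcodes in ULI and 2740 CPM (2544 to 2947) of 454 in ULC, against 837 CPM (708 to 982) of 209 in the control.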

How the results depend on the processing

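Of 1078 log2 ratios recomputed under the alternatives, 1008 kept their direction, and of the 251 that belong to ratios past 2-fold, 249 kept it and 226 stayed past 2-fold. Among those 251 only Slc1a3 in newly formed oligodendrocyte-like cells changed sign, after the microglia-like level was subtracted. Its values were 0.73 in ULI and 0.67 in ULC against the control. Slc1a3 in newly formed cells (10.2, 11.9 and 81.5 CPM in ULI, ULC and control) lay below the microglia-like level (140, 137 and 160 CPM). The subtracted levels were therefore negative, and these 2 values give no direction. The counts above include ratios of this kind. In astrocyte-like cells 298 of 311 kept their direction. The count of members past 2-fold there was 0 in ULI and 1 in ULC against the control, and 1 in ULI against ULC, except 2 in ULC at resolution 2 and with astrocytes taken by 3 of 5 markers, and 2 in ULI against ULC with those 3 of 5 markers and with a floor of 20 UMIs, which lets Slc1a1 enter. The share of all genes past 2-fold in ULC against the control was 17.3% at resolution 2 and 21.4% with 3 of 5 markers. In ULI against ULC it was 17.0% with 3 of 5 markers and 26.3% with the floor of 20 UMIs. The members' median in ULC against the control was -0.090 with 3 of 5 markers and -0.17 with median-of-ratios factors, and in ULI against ULC 0.24 with at most 20% mitochondrial UMIs, 0.54 with 3 of 5 markers, 0.17 with TMM and 0.15 with median-of-ratios factors. Within-cluster values and values without the richest cell were added after the data were seen. No pericyte-like class formed at resolution 0.5. Depth limits Slc1a1, Maob and Slc38a3 in astrocyte-like cells, and the control held only 7 neuron-like and 53 newly formed oligodendrocyte-like cells. No paired analysis was possible because each group is 1 library.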
